A study of Homo sapiens with 7 samples.

Results

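The regions described here are the peaks that lay deep inside long genes. A peak was counted as deep when its summit fell within the span of a protein-coding gene and at least 50 kb from both ends of every protein-coding gene, on chromosomes 1 to 22, by the RefSeq gene table of GRCh38. The rule used positions only and no peak height. It took 25864 of the 149465 peaks in 6 lists, or 17.3%. The sequence open to such peaks was 474.7 Mb, which is 39.2% of all protein-coding gene sequence, and it lay in 3039 of 19126 protein-coding genes.

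The lists come from chromatin immunoprecipitation and sequencing with an antibody to PPARα in HepG2, a cell line from a human hepatocellular carcinoma. All 3 groups carried a transfected PPARα expression vector, with agonist treatment starting 48 h later. In the PPARα+ERα group a vector for estrogen receptor α was added, and the cells received the ERα agonist PPT at 10 nM for 45 min and then WY14643, an agonist of PPARα, at 10 µM for 2 h. The PPARα+ERβ group carried a vector for estrogen receptor β and received the ERβ agonist DPN at 10 nM for 45 min, then the same WY14643 step. The PPARα group carried the PPARα vector alone and received WY14643 for 2 h with no estrogen agonist. The labels write this agonist both as Wy13643 and as Wy14643. No group lacked transfected PPARα or lacked WY14643, so the groups differ in an added receptor and its agonist together. There were 2 libraries per group. Nothing in the labels says that they came from separate cultures, so each SD and p below measures the spread between libraries and may be technical. Peak lists give no expression level, so the cell type was not checked against marker genes.

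PPARα is a nuclear receptor that senses fatty acids, binds DNA as a heterodimer with RXR at direct repeats of the hexamer AGGTCA, and drives fatty acid oxidation genes in liver. Estrogen receptors bind inverted repeats of the same hexamer. Nuclear receptors bind introns and distal enhancers as well as promoters, and the longest human genes, many of which encode neuronal adhesion proteins, consist almost wholly of introns.

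Sequence was taken from 300-base windows around annotated transcript starts, from 250 bases before to 50 after, so the windows shown are the internal starts that a deep peak touched. They are shown as the DNA under these particular peaks, which are few of all deep peaks and do not stand for the rest. Of 1976 start windows deep inside genes, 24 overlapped a deep peak, 13 of them at starts of long noncoding RNAs and 11 at internal starts of protein-coding genes. A summit fell inside 13 of them. Overlap came from 1 library for 14 windows, from 2 for 6, from 3 for 2 and from 4 for 2. The first 3 windows below had a peak in both PPARα+ERα libraries and in no other library. They are an internal start of FOXP1, a forkhead repressor (chr3:71245028-71245327, minus strand), the noncoding RNA LOC105370972 inside SV2B, a synaptic vesicle protein gene (chr15:91246028-91246327, minus strand), and LOC124902431 inside RHOBTB1 (chr10:60942639-60942938, plus strand). The other 3 had peaks in both PPARα lists and in 1 or both PPARα+ERβ lists, and none in the PPARα+ERα lists. They are ROR1-AS1 inside the receptor tyrosine kinase gene ROR1 (chr1:64113742-64114041, minus strand), an internal start of the ubiquitin ligase gene PDZRN3 (chr3:73561531-73561830, minus strand) and one of TCF4, a basic helix-loop-helix factor (chr18:55321792-55322091, minus strand). Each is printed 5′ to 3′ along its own transcript from RefSeq, build GRCh38.p14, and the 21 bases centred on the median summit are in capitals.
FOXP1: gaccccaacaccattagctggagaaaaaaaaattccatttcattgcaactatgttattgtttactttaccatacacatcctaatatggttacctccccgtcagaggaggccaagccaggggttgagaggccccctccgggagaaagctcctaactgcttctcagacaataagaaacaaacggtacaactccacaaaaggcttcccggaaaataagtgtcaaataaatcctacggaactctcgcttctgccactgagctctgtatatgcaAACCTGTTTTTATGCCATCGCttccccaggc
LOC105370972: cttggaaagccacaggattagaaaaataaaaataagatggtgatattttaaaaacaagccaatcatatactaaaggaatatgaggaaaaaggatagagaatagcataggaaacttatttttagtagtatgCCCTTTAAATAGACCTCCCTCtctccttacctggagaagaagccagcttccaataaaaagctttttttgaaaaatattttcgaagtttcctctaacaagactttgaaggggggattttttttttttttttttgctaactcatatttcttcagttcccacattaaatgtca
LOC124902431: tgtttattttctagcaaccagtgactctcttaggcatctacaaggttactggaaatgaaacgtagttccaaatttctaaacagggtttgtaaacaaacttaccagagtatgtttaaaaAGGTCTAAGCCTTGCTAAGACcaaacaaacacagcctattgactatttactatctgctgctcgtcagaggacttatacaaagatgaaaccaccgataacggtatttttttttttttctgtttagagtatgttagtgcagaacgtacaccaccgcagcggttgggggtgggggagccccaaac
ROR1-AS1: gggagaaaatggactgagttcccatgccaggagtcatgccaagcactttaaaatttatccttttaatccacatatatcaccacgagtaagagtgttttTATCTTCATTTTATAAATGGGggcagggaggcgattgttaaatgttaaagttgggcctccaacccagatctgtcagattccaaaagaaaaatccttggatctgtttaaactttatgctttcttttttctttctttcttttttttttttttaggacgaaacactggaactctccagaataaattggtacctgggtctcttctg
PDZRN3: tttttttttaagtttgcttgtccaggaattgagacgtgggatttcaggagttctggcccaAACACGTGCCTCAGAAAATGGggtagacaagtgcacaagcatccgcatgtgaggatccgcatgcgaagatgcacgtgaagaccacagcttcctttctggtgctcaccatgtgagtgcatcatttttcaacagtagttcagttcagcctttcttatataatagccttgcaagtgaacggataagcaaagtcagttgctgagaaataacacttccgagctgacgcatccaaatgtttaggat
TCF4: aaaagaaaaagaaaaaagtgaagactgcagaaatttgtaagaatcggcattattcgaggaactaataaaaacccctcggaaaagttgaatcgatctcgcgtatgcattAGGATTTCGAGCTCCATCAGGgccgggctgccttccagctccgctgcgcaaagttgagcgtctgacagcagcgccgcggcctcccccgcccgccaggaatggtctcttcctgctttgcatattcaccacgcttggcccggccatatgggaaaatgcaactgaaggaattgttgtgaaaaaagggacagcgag

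The summits were placed closely. Both PPARα+ERα libraries put the FOXP1 summit at base 71245048, and the 4 summits at ROR1-AS1 lay at 64113935 and 64113933 in the PPARα+ERβ libraries and at 64113934 and 64113933 in the PPARα libraries. The authors' fold, which sets a summit against the local background of its own list, was 2.80 and 3.39 at FOXP1 and 5.33 and 5.07 at LOC124902431 in PPARα+ERα libraries 1 and 2. At ROR1-AS1 it was 3.63 and 3.97 in the PPARα+ERβ libraries and 3.64 and 4.02 in the PPARα libraries. PDZRN3 had fold 6.47 in PPARα+ERβ library 2 and 8.17 and 10.0 in the PPARα libraries, with no peak in PPARα+ERβ library 1. TCF4 had fold 4.37 in PPARα+ERβ library 2 and 5.66 and 6.10 in the PPARα libraries, likewise with none in PPARα+ERβ library 1. Folds rank peaks within a list and are not compared between lists.

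None of the 6 printed windows held the hexamer AGGTCA on either strand. It was found in 4 of the 24 windows under a deep peak (16.7%), in 15.9% of the 1976 windows deep inside genes and in 13.8% of all 33725 windows. The direct repeat AGGTCANAGGTCA was in 8 of all windows and the inverted repeat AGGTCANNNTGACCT in 1, and in 0 of the 24 under a deep peak. Both repeats contain the hexamer, so these matches overlap it. The 24 windows had a median GC content of 41.7%, compared with 47.0% for all deep windows and 58.7% for all windows. These are letter matches in fixed windows, and most deep peaks lie outside any such window.

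Deep peaks were found in every list at a similar share. They numbered 4372 and 4942 in the PPARα+ERα libraries, 2925 and 3707 in the PPARα+ERβ libraries and 4060 and 5858 in the PPARα libraries. Their share of all peaks was 18.1% and 18.2% in the PPARα+ERα pair, 17.2% and 16.3% with PPARα+ERβ, and 17.5% and 16.6% with PPARα. The Wilson 95% interval, which covers counting error only, was 17.6 to 18.6% for PPARα+ERα library 1 and 15.9 to 16.8% for PPARα+ERβ library 2. Both PPARα+ERα libraries were above the other 4, while the PPARα+ERβ and PPARα libraries overlapped. The PPARα+ERα mean exceeded the PPARα mean by 1.07 percentage points and the PPARα+ERβ mean by 1.39 points (exact permutation test, two-sided p = 0.333 for each, the smallest that 2 against 2 libraries allow). The PPARα+ERβ mean was below the PPARα mean by a difference of -0.32 points (p = 0.667 by the same exact test). The first difference was 4.88 points with peaks of low local background alone, 0.455 with lists of equal length and 0.478 (p = 0.667, exact permutation test) with the ends of every gene type in the rule. The second was 3.90 points with low local background alone, 0.788 with the ends of every gene type and 1.03 with lists of equal length. An exact permutation test over the 15 pairings of 6 libraries gave p = 0.267 for the 3 groups, where 0.0667 is the smallest possible.

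In each library peaks were sparser deep inside genes than in the rest of gene sequence. Per Mb of eligible sequence the deep density was 9.21 and 10.4 peaks in the PPARα+ERα pair, 6.16 and 7.81 with PPARα+ERβ, and 8.55 and 12.3 with PPARα. In gene sequence within 50 kb of a protein-coding gene end the peaks per Mb were 10.5 and 11.7 (PPARα+ERα), 7.94 and 10.7 (PPARα+ERβ) and 9.90 and 16.1 (PPARα). The deep density was the lower one in 6 of 6 libraries, with a ratio of 0.874 and 0.888 for PPARα+ERα, 0.777 and 0.729 for PPARα+ERβ, and 0.864 and 0.768 for PPARα. The mean log2 ratio was -0.30 ± 0.12 (SD, n = 6; exact sign-flip test, two-sided p = 0.03125, the smallest that 6 libraries allow). Adjusted by Benjamini-Hochberg over the 5 such tests, p was 0.156, so the difference does not pass at 0.05.

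The density did not change in a single direction with distance from a gene end. In the first 5 kb it was 9.79 and 11.5 peaks per Mb (PPARα+ERα), 7.78 and 10.4 (PPARα+ERβ) and 8.90 and 14.6 (PPARα). At 10 to 25 kb it was 11.1 and 11.7 (PPARα+ERα), 8.53 and 11.3 (PPARα+ERβ) and 10.4 and 17.3 (PPARα), higher in all 6 libraries. There was no step at the 50 kb limit. Between 45 and 50 kb from an end the density was 10.5 and 11.3 peaks per Mb with PPARα+ERα, 7.18 and 9.29 with PPARα+ERβ and 9.54 and 15.0 with PPARα. Between 50 and 55 kb, just inside the rule, it was 10.1 and 11.2 (PPARα+ERα), 7.09 and 9.45 (PPARα+ERβ) and 9.34 and 14.6 (PPARα). The PPARα+ERα and PPARα libraries had their lowest density at 200 to 400 kb, at 8.33 and 9.40 (PPARα+ERα) and 7.95 and 10.9 (PPARα). PPARα+ERβ library 1 was lowest beyond 400 kb, at 5.22, and library 2 at 200 to 400 kb, at 6.76. Beyond 400 kb the other 5 libraries were higher again, at 9.63 and 10.4 (PPARα+ERα), 7.31 (PPARα+ERβ library 2) and 9.15 and 11.8 (PPARα). Genes with little eligible sequence had more deep peaks per Mb than the longest ones. In the 1772 genes with under 0.1 Mb eligible the density was 10.7 and 11.9 in the PPARα+ERα pair, 7.48 and 9.54 with PPARα+ERβ, and 9.25 and 14.6 with PPARα. In the 56 genes with at least 1 Mb it was 8.79 and 10.0 (PPARα+ERα), 5.20 and 6.99 (PPARα+ERβ) and 8.87 and 11.4 (PPARα).

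**Figure D1:**
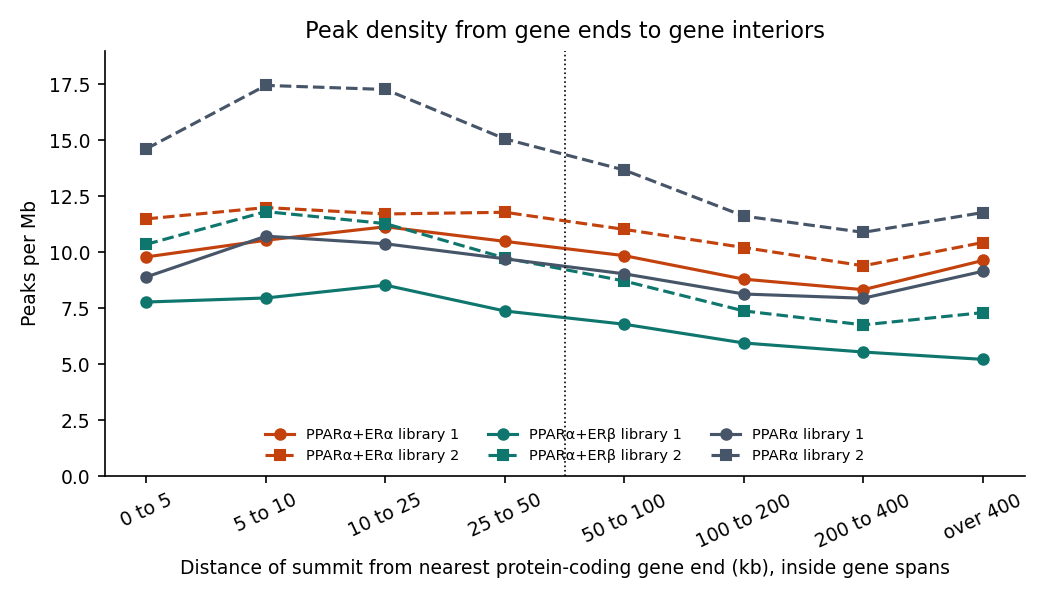
Peaks per Mb of protein-coding gene sequence (y axis) by distance of the summit from the nearest protein-coding gene end in kb (x axis, classes of unequal width), 1 line per library. The dotted line marks the 50 kb rule, and to its right all 6 lines lie lower than at 10 to 25 kb, where PPARα+ERα library 1 had 11.1 and PPARα library 2 had 17.3 peaks per Mb, against 9.79 and 14.6 in the first 5 kb.

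Deep peaks stood on different local background in the 3 groups. The peak caller's background at the summit, relative to the genome-wide level of its list, had a median of 1.57 and 1.45 times (PPARα+ERα), 9.89 and 9.74 times (PPARα+ERβ) and 13.5 and 18.1 times (PPARα). A background of at most 3 times lay under 74.7 and 78.3% of deep peaks with PPARα+ERα, 18.5 and 20.7% with PPARα+ERβ and 13.005 and 9.25% with PPARα. The group ranges did not overlap (exact permutation over 15 pairings, p = 0.0667, the smallest possible). At places where 2 libraries both had a deep summit, it hardly differed between them. Where 2 libraries had deep summits within 50 bp of each other (71 to 2798 regions in each of 15 library pairs), the median ratio of their relative backgrounds was 0.992 to 1.05, and 76.1 to 96.3% of regions agreed within 10%. Pairs of a PPARα+ERα library with another group had 71 to 203 such regions. Their median background was 2.35 to 2.57 times in the PPARα+ERα library, so places of high background are hardly covered for these pairs.

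The number of fragments stacked at a deep summit, recovered from the deposited values, had a median of 9 and 10 in the PPARα+ERα pair, 28 and 32 with PPARα+ERβ, and 37 and 54 with PPARα. A peak called from so few fragments is known with less precision. The median width was 338 and 341 bp (PPARα+ERα), 345 and 354 bp (PPARα+ERβ) and 351 and 374 bp (PPARα). Set against all other peaks of the same library, deep peaks differed little. The mean log2 ratio was 0.03 ± 0.14 for background, 0.06 ± 0.05 for fragments and -0.0041 ± 0.0044 for width (SD, n = 6; exact sign-flip tests, adjusted p = 0.75, 0.208 and 0.208). Another library of the same group overlapped 37.0 and 32.7% of deep peaks with PPARα+ERα, 58.6 and 46.2% with PPARα+ERβ and 73.4 and 50.9% with PPARα. Across the 6 libraries that share was 0.850 ± 1.40 points above that of other peaks (SD; exact sign-flip test, adjusted p = 0.312).

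**Figure D2:**
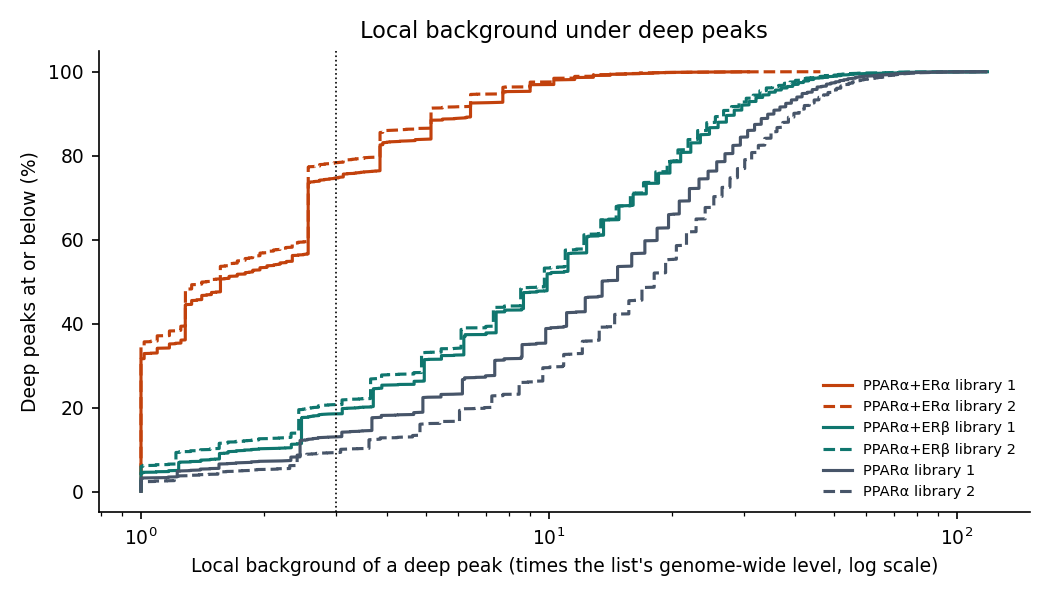
Cumulative share of deep peaks (y axis, %) by local background relative to the list's genome-wide level (x axis, times, log scale), 1 line per library, with the 3-fold limit dotted. The PPARα+ERα lines reach 74.7 and 78.3% at that limit, the PPARα+ERβ lines 18.5 and 20.7% and the PPARα lines 13.005 and 9.25%.

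By gene, deep peaks were spread widely. Of 3039 eligible genes, 2343 had a deep peak in any library, 732 had one in every library and 696 had none. The genes without any had a median of 14.002 kb of eligible sequence, against 107.9 kb for those with a peak. The number of deep peaks followed the amount of eligible sequence across genes (Spearman's correlation 0.832 and Pearson's 0.891 over 3039 genes, a description only, since genes share libraries). The 10 genes with the highest share held 4.48% of deep peaks in 3.71% of the sequence. In the following, a gene is called bound in a group when a merged region, made by joining peaks that overlap by 1 bp or more, had a peak in both libraries. The word refers to a called peak and to nothing more.

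MACROD2, a hydrolase that removes mono-ADP-ribose from proteins, led the list with 51 and 42 deep peaks in the PPARα+ERα libraries, 15 and 22 in the PPARα+ERβ libraries and 26 and 23 in the PPARα libraries, in 1.84 Mb on chromosome 20. Its PPARα+ERα counts stood above all the others. CNTNAP2, a neurexin-family adhesion protein on chromosome 7, had 14 and 16 (PPARα+ERα), 14 and 26 (PPARα+ERβ) and 26 and 41 (PPARα) deep peaks, with the PPARα+ERα and PPARα libraries apart. LRP1B, a member of the LDL receptor family, had 23 and 24 (PPARα+ERα), 12 and 18 (PPARα+ERβ) and 29 and 26 (PPARα), with PPARα+ERβ lowest. PTPRD, a receptor tyrosine phosphatase at synapses, had 29 and 32 (PPARα+ERα), 13 and 15 (PPARα+ERβ) and 20 and 24 (PPARα). These raw counts separated fully by group, with PPARα+ERα on top. Counts in this paragraph are not scaled to list size, and the PPARα+ERβ lists were the smallest, at 2925 and 3707 deep peaks. Groups that stand apart in counts can therefore overlap as shares of their lists. RBFOX1, a neuronal splicing regulator with the longest eligible stretch of any gene (2.37 Mb), had 21 and 29 (PPARα+ERα), 11 and 12 (PPARα+ERβ) and 24 and 35 (PPARα). CSMD1, DPP10, DLG2 and PLCB1, a phospholipase C, were also among the 10 genes, with 7 to 23 deep peaks in each library.

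Density gave other names. Among genes with at least 0.2 Mb eligible, SSH2, a cofilin phosphatase, had 27.8 ± 9.64 deep peaks per Mb, MED13L, a subunit of the Mediator kinase module, 26.6 ± 10.6, and EIF4G3, a translation initiation factor, 24.0 ± 5.09 (SD over 6 libraries of all groups). The forkhead gene FOXN3 (23.4 ± 8.31), THADA (23.3 ± 8.40), PLCB1 (22.0 ± 5.19), the anchoring protein gene AKAP6 (21.6 ± 4.75) and the tight junction scaffold gene PATJ (20.2 ± 7.03) followed. Most of these rest on few peaks, such as 5 and 3 (PPARα+ERα), 4 and 7 (PPARα+ERβ) and 8 and 7 (PPARα) at SSH2. Of the ranked genes only PLCB1 was in both lists.

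**Figure D3:**
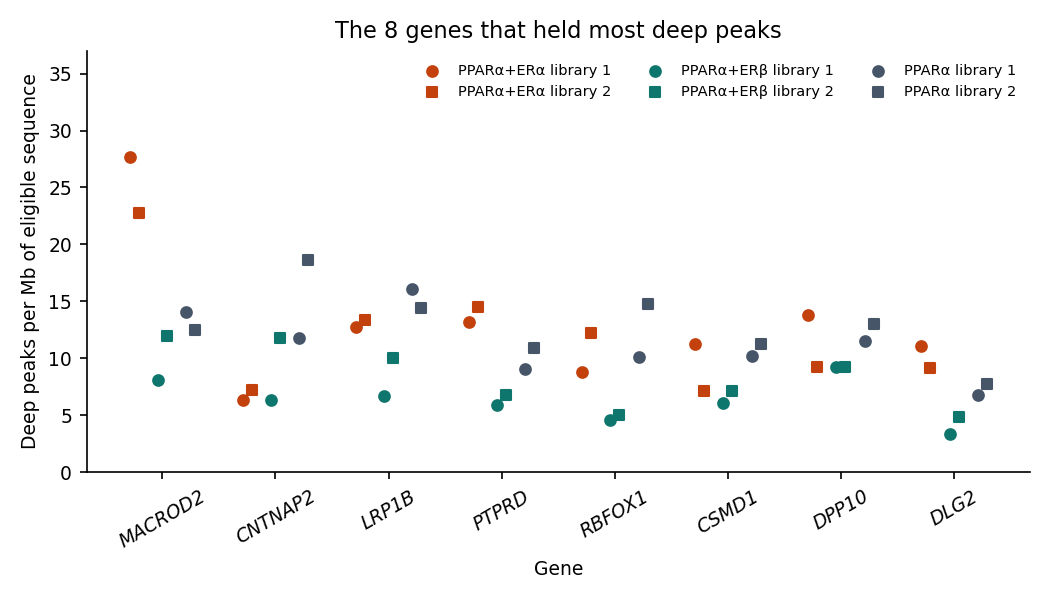
Deep peaks per Mb of eligible sequence (y axis) in the 8 genes with the highest share of deep peaks (x axis), 1 point per library. MACROD2 had 27.7 and 22.8 per Mb with PPARα+ERα, 8.14 and 11.9 with PPARα+ERβ and 14.1 and 12.5 with PPARα.

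Chromosomes held unequal densities of deep peaks. HepG2 is known for extra copies of chromosomes 2, 14, 16, 17 and 20. On these 5, which hold 18.99% of the eligible sequence, deep density was 1.61 and 1.46 times that of the other 17 autosomes (PPARα+ERα), 1.33 and 1.24 times (PPARα+ERβ) and 1.29 and 1.21 times (PPARα). Pooled over the 5, every library was denser there, and both PPARα+ERα libraries more so than the other 4. Single chromosomes differed. Chromosome 17 was at 1.08 and 1.003 times the library's mean (PPARα+ERα), 1.08 and 1.23 times (PPARα+ERβ) and 1.27 and 1.32 times (PPARα). Chromosome 6, outside the 5, was at 1.22 and 1.21 times (PPARα+ERα), 1.07 and 1.19 times (PPARα+ERβ) and 1.01 and 1.06 times (PPARα). Chromosome 20, which carries MACROD2 and PLCB1, was at 1.98 and 1.59 times the library's mean (PPARα+ERα), 1.37 and 1.28 times (PPARα+ERβ) and 1.42 and 1.22 times (PPARα). Copy number was not measured in these files, and how the control used in peak calling was scaled is not given in the sources used here. The part of copy number in the gene counts was not tested beyond the scaling within chromosomes given below.

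**Figure D4:**
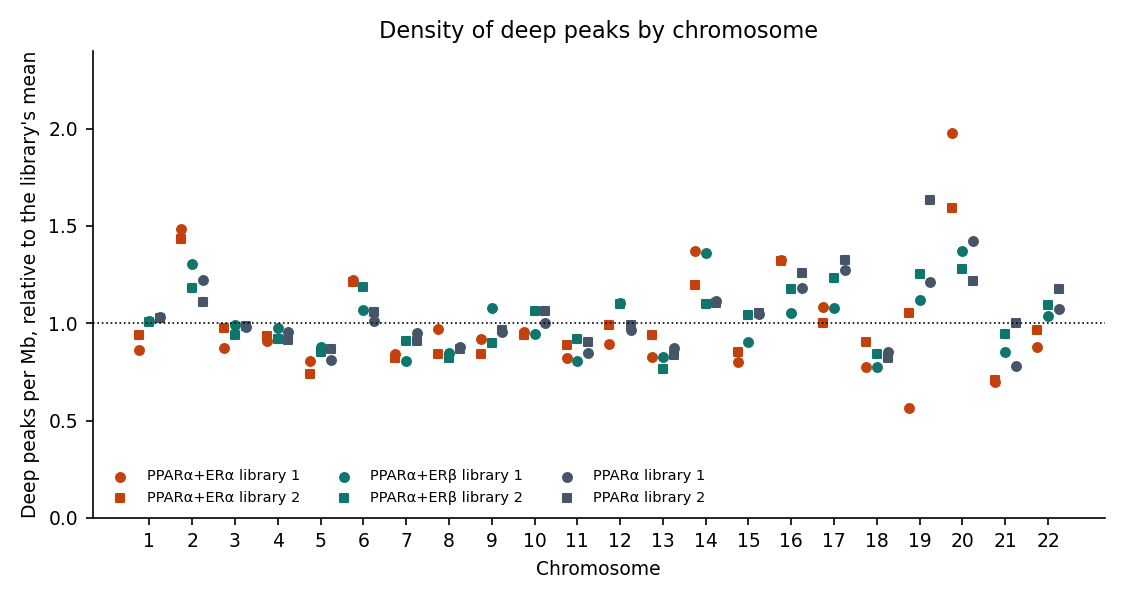
Deep peaks per Mb of eligible sequence on each autosome (x axis) relative to the library's mean over all autosomes (y axis, ratio), 1 point per library. Chromosome 20 is highest in both PPARα+ERα libraries (1.98 and 1.59), and chromosome 19, with 1.74 Mb eligible, varies most between libraries.

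Merging gave 15696 deep regions among 90086, and 19 deep regions had a peak in all 6 libraries. The highest ranked of these, by the lowest within-list percentile of −log10 q, lay in MAP2K6, the kinase that activates p38 (chromosome 17, 69479226 to 69479735). Its fold was 6.79 and 6.55 (PPARα+ERα), 19.02 and 21.9 (PPARα+ERβ) and 23.2 and 17.5 (PPARα). NRG3, a ligand of the receptor ERBB4, followed (chromosome 10, 82753947 to 82754468), with fold 6.99 and 6.26 (PPARα+ERα), 13.5 and 11.7 (PPARα+ERβ) and 14.3 and 11.9 (PPARα). COBL, an actin nucleator, had fold 6.48 and 7.05 (PPARα+ERα), 11.4 and 8.78 (PPARα+ERβ) and 11.3 and 14.9 (PPARα). Stacked fragments at MAP2K6 numbered 12 and 12 (PPARα+ERα), 44 and 57 (PPARα+ERβ) and 54 and 44 (PPARα), so the PPARα+ERα peaks were the smaller stacks. ANTXR1, MYO1E, EEA1, MARCHF1 and GBF1 held the next regions in that ranking.

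Bound deep regions numbered 1618 in PPARα+ERα, which is 21.03% of the 7695 found in either of its libraries, 1711 of 4917 (34.8%) in PPARα+ERβ, and 2980 of 6935 (43.0%) in PPARα. Of the regions bound in PPARα+ERα, 91.1% had no peak in any library of another group, against 12.5% in PPARα+ERβ and 31.2% in PPARα. Outside deep sequence these shares were 89.5, 10.8 and 30.1%, so deep regions were like the rest. PPARα+ERα and PPARα shared 28 bound regions, 1.73% and 0.940% of their sets. PPARα+ERβ and PPARα shared 1121, 65.5% and 37.6% of theirs. By gene, 909 of the eligible genes (29.9%) were bound in PPARα+ERα, 979 (32.2%) in PPARα+ERβ and 1290 (42.4%) in PPARα. Of these genes, 478 had a bound region in each of the 3 groups, not necessarily at the same place, and 1384 had none in any group. The deep regions bound in all 3 groups at one place numbered 19. The numbers with a bound region in 1 group alone were 230, 91 and 289 for PPARα+ERα, PPARα+ERβ and PPARα.

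Where peaks deep in genes differ once ERα and its agonist are added was asked by setting PPARα+ERα against PPARα. Of 14324 deep regions with a peak in any of the 4 libraries, 1555 (10.9%) had a peak in both PPARα+ERα libraries and neither PPARα library, and 2840 (19.8%) had the reverse. Over all regions, deep or not, these percentages were 10.2 and 20.0, so deep regions stood near the background in both directions. Single regions were not tested. The PPARα+ERα regions lay in 892 genes and the PPARα regions in 1263. A background of at most 3 times was found for 83.5% of the PPARα+ERα peaks in the first regions and 7.78% of the PPARα peaks in the second. With peaks of such low background alone the counts were 1288 and 214, so the order of the 2 directions turned. That limit kept 74.7 and 78.3% of deep PPARα+ERα peaks but 13.005 and 9.25% of deep PPARα peaks. It thus shortened the PPARα lists far more, and the turn was largely set by the limit itself. With lists of equal length they were 994 and 1671. Without PPARα+ERα library 1 or 2 the first count was 4743 or 4203, and without PPARα library 1 the second was 5662. Leaving out a library asks for a peak, or for its absence, in fewer lists. Such counts could therefore hardly fall, and their rise is no measure of stability. The part of local background in the difference was not tested.

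The highest ranked region with PPARα+ERα lay in ARHGEF3, a guanine nucleotide exchange factor (chromosome 3, 56992399 to 56992852), with fold 19.99 and 25.997 from 29 and 39 fragments and no peak in the other 4 libraries. ARHGEF3 as a whole held 3 regions of this direction and 4 of the reverse. THADA, a gene truncated in thyroid adenomas, had fold 13.99 and 16.1 (chromosome 2, 43294206 to 43294619), and AFG1L, a mitochondrial ATPase, 20.9 and 16.6. A region in SPRED2, an inhibitor of Ras signalling (chromosome 2, 65362087 to 65363529), had fold 16.5 and 16.9 with PPARα+ERα alone, while another region in the same intragenic stretch, at 65360064 to 65360467, had peaks in all 6 libraries. CUX1, a homeodomain factor, had fold 15.1 and 17.6 and also a peak in PPARα+ERβ library 1 (6.94). ZNF644, GALNT13 and SLC4A10 were the others of the first 8. The ARHGEF3, SPRED2, ZNF644, CUX1 and SLC4A10 peaks stood on 1.00 to 1.28 times the genome-wide background, and those of GALNT13 on 5.99 times.

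Among regions seen with PPARα and missing from both PPARα+ERα lists, the first by rank lay in NCAM2, a neural cell adhesion molecule (chromosome 21, 21473902 to 21474352), at fold 19.6 and 19.3 for PPARα+ERβ and 28.3 and 44.7 for PPARα. It stood on 1.00 times the genome-wide background in these 4 libraries, at the low end of the PPARα peaks. DOK5, a docking protein of receptor tyrosine kinases, had fold 17.98 and 22.3 for PPARα+ERβ and 21.9 and 33.03 for PPARα (chromosome 20, 54566017 to 54566423). PLCB1 was also here, with fold 3.23 and 2.65 in the PPARα+ERβ libraries, and 4.12 and 4.44 in the PPARα libraries from 214 and 261 fragments, on a background 87.1 and 85.7 times the genome-wide level. GALNT13, THSD7A and MARCHF1 were also among the first 8. Of all 2840 such regions, 67.3% had a peak in PPARα+ERβ, 1024 of them in both libraries. GALNT13 and PLCB1 thus held regions of both directions at separate places.

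**Figure D5:**
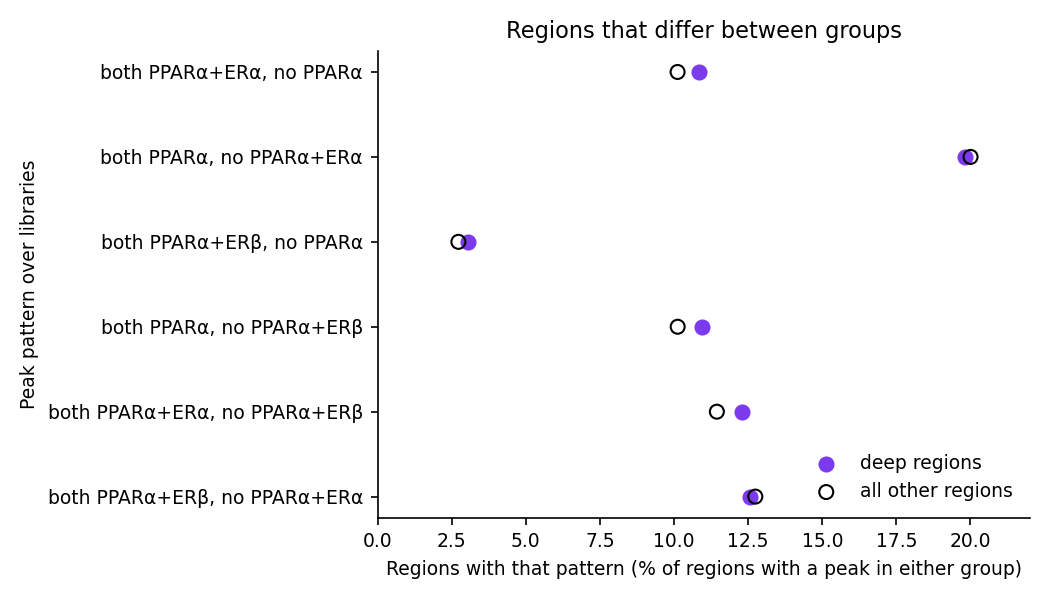
Share of regions (x axis, % of regions with a peak in either group) that had a peak in both libraries of the first group and in neither of the second (y axis, 6 patterns), for deep regions (filled) and all other regions (open). Deep and other regions lie within 1 percentage point of each other in every pattern, from 3.04 and 2.72% for PPARα+ERβ over PPARα to 19.8 and 20.003% for PPARα over PPARα+ERα.

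Counting peaks per gene asks the same of whole gene interiors. A model over 560 gene parts with a mean of at least 3 peaks, 429 of them deep, compared each part's share of its library's peaks (limma, Benjamini-Hochberg adjusted p below 0.05). The deep parts of 9 genes (2.10% of deep parts) had relatively more peaks with PPARα+ERα than with PPARα, and those of 10 (2.33%) had fewer, beside 1.79 and 1.96% of all parts. At an unadjusted p under 0.05 there were 42 and 45. The median log2 difference was 0.01 over deep parts and -0.06 over all parts. LRRTM4, a synaptic organizer on chromosome 2, had 16 and 16 deep peaks in PPARα+ERα against 5 and 4 in PPARα lists (log2 difference 1.89 ± 0.40 SE, limma adjusted p = 0.00185). The exocyst subunit gene EXOC4 had 9 and 10 with PPARα+ERα against 2 and 3 with PPARα, and the cytoskeletal linker gene MACF1 had 8 and 8 with PPARα+ERα against 1 and 4 with PPARα. MACROD2 was higher by 1.06 ± 0.27 on the log2 scale (limma adjusted p = 0.0113). SDK1, UTRN (utrophin), THSD7B, LRBA and NUBPL, an assembly factor of respiratory complex I, were the other 5. A part can reach the mean of 3 peaks through the group where it is high. Calls in either direction on genes with few peaks elsewhere, such as EXOC4 and MACF1, may therefore rest in part on that filter.

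Fewer deep peaks with PPARα+ERα than with PPARα were counted in MITF, the melanocyte master regulator (0 and 2 in PPARα+ERα against 5 and 6 in PPARα lists; log2 difference -2.26 ± 0.64 SE, limma adjusted p = 0.0198), and in FMN2, a formin (1 and 1 in PPARα+ERα against 6 and 6 in PPARα lists). CNTNAP2 was lower by a log2 difference of -0.94 ± 0.30 (limma adjusted p = 0.048), and the scaffold gene MAGI2 had 6 and 5 with PPARα+ERα against 14 and 15 with PPARα. ST6GALNAC3, SEMA5A, TMEM132D and CPEB3 were also among the 10. TMTC2 (0 and 6 in PPARα+ERα against 7 and 9 in PPARα) and TMCC1 (5 and 0 in PPARα+ERα against 5 and 7 in PPARα) differed at least as much between the PPARα+ERα libraries as between groups. These calls were not firm. Scaling each count by the peaks on its own chromosome, an alternative chosen after the data were seen, left 0 of 9 and 0 of 10 called (limma, adjusted p 0.0947 to 0.301 for these genes), although all kept their direction. Without PPARα library 1 the calls numbered 3 and 0, without PPARα library 2 none in either direction, and without PPARα+ERα library 1 they numbered 1 and 12. Without PPARα+ERα library 2 there were 24 with fewer peaks, and without PPARα+ERβ library 2 there were 3. Of the 9 genes with more peaks, 4 lay on chromosomes 2, 14, 16, 17 or 20, and of the 10 with fewer, 0 did.

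PPARα+ERβ was set against the same PPARα libraries, so both comparisons share them. Of 8591 deep regions, 261 (3.04%) were found in each PPARα+ERβ library and in no PPARα library, beside 2.78% of all regions, and 941 (10.95%) had the reverse, beside 10.3%. The first lay in 225 genes and the second in 626. The PPARα+ERβ regions were led by OLA1, a translation-linked ATPase (chromosome 2, 174166124 to 174166474; fold 7.75 and 6.67), and L3MBTL3, a reader of methylated lysine (fold 7.75 and 7.95). SAMD4A, an RNA-binding translational repressor, had 6.20 and 5.19, and CNOT4, a ubiquitin ligase of the CCR4-NOT complex, 10.5 and 10.5. DNAH8, SERINC5, CACNB2 and UNC5D were the other 4 of the first 8, and no PPARα+ERα library had a peak at any of the 8.

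Of the regions found with PPARα and not with PPARα+ERβ, the first 8 by rank included ANK1, the erythrocyte ankyrin (PPARα fold 7.83 and 10.6), and NAALADL2 (4.52 and 5.41). CTNNA2, the neuronal α-catenin, had 4.68 and 5.79 and PBRM1, a chromatin remodelling subunit, 6.19 and 6.27. CARMIL1 and ZCCHC7 were also among the 8. Only 1.17% of the 941 had any PPARα+ERα peak. Local background under the PPARα+ERβ peaks of the 261 regions had a median of 6.14 times the genome-wide level. Under the PPARα peaks of the 941 regions it was 22.1 times. Of these peaks, 29.9% in the 261 regions and 4.84% in the 941 were at most at 3 times. With low-background peaks alone the counts were 78 and 47, the opposite order, and with lists of equal length they were 398 and 520. The low-background limit kept 18.5 and 20.7% of deep PPARα+ERβ peaks and 13.005 and 9.25% of deep PPARα peaks. It thus shortened the PPARα lists more, which favours that order. Leaving out PPARα+ERβ library 1 or 2 gave 1061 or 856 for the first, PPARα library 1 or 2 gave 399 or 452 for the first and 3065 or 1552 for the second, and PPARα+ERβ library 2 gave 1544 for the second. As said above, such counts could hardly fall.

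By gene, the same model called 0 deep parts in either direction for PPARα+ERβ against PPARα, beside 0.0% of all parts. At an unadjusted p under 0.05, limma gave 11 deep parts with more and 18 with fewer. This does not show that the genes held equal shares.

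PPARα+ERα and PPARα+ERβ were also compared directly. Of 12094 deep regions, 1488 (12.3%) had a peak in both PPARα+ERα and neither PPARα+ERβ library, and 1520 (12.6%) the reverse, beside 11.6 and 12.7% of all regions. The first set was led by ARHGEF3, THADA, AFG1L, SPRED2, ZNF644, GALNT13 and SLC4A10, as above, and by LRFN5, a synaptic adhesion gene (chromosome 14, 41708270 to 41708736; fold 13.7 and 16.9). The second set was led by DOK5, then PRORP, the catalytic subunit of mitochondrial RNase P (chromosome 14, 35210296 to 35210765), with fold 9.32 and 9.92 in PPARα+ERβ and 5.57 and 11.7 in PPARα libraries. TMCC1 had fold 14.7 and 17.6 with PPARα+ERβ and 14.3 and 13.3 with PPARα. FOXP1 (chromosome 3, 71133673 to 71134174) had 9.74 and 9.38 with PPARα+ERβ and 12.9 in PPARα library 2 alone, at another place in the gene than the start window printed above. NCAM2, MARCHF1 and MAPRE2 were also among its first 8. Of the 1520, 85.9% had a peak in a PPARα library. Without PPARα+ERα library 1 or 2 the first count was 4601 or 4065, and without PPARα+ERβ library 1 or 2 the second was 3325 or 2595. These counts, too, could hardly fall. With low-background peaks alone the counts were 1235 and 188, and with lists of equal length 943 and 1404. The low-background limit removed most PPARα+ERβ peaks and few PPARα+ERα peaks, which favours the first count.

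By gene, 13 deep parts had relatively more and 17 relatively fewer peaks with PPARα+ERα than with PPARα+ERβ (limma, adjusted p below 0.05), beside 2.5 and 4.64% of all parts. PSD3, an exchange factor for the small GTPase ARF6, had 11 and 10 deep peaks in PPARα+ERα against 0 and 0 in PPARα+ERβ lists (limma adjusted p = 0.0222), with 1 and 5 in the PPARα libraries. Gene parts were tested at a mean of at least 3 peaks over the 6 libraries, which PSD3 reached only through its PPARα+ERα peaks. Its call therefore rests in part on that filter, and other genes can have passed it in the same way. PDE1A, a calmodulin-dependent cyclic nucleotide phosphodiesterase, had 8 and 7 with PPARα+ERα against 1 and 2 with PPARα+ERβ, and ANK2, an ankyrin, 7 and 13 (PPARα+ERα) against 1 and 3 (PPARα+ERβ). AGAP1, SLC24A2, THSD7B, LRRTM4, MACROD2, EXOC4 and LINGO2 were also higher. VTI1A, a vesicle SNARE, had 2 and 2 with PPARα+ERα against 6 and 6 with PPARα+ERβ, and MITF 0 and 2 (PPARα+ERα) against 4 and 5 (PPARα+ERβ). TMTC2, FMN2, MAGI2, PPP2R2B, QTMAN, SEMA5A, DOCK3 and TMEM132D were also lower. Scaled within chromosomes, 1 of these calls was left, PSD3 (limma adjusted p = 0.00143), and all 30 deep parts kept their direction. Without PPARα library 1 or 2, 0 calls were left in either direction. Leaving out a PPARα+ERα library gave 4 or 10 with more and 25 or 29 with fewer (library 1 or 2), and leaving out a PPARα+ERβ library gave 7 or 5 with more and 2 with fewer for each.

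Nuclear receptor and coregulator genes were bound in 8 of 29 eligible members with PPARα+ERα, 13 with PPARα+ERβ and 16 with PPARα, that is 27.6, 44.8 and 55.2% beside 29.9, 32.2 and 42.4% of all eligible genes. The median density over members was 8.48 deep peaks per Mb, beside 7.57 over all eligible genes, and the median eligible length 127.3 kb, beside 73.9 kb. Pooled over members, the density was 7.39 and 9.55 (PPARα+ERα), 7.93 and 9.55 (PPARα+ERβ) and 7.75 and 13.5 (PPARα). Pooled over all eligible genes it was 9.22 and 10.4, 6.16 and 7.81, and 8.55 and 12.3, so the list was not denser in every library. ESR1, the ERα gene itself, had 2 and 4 deep peaks with PPARα+ERα, 3 and 3 with PPARα+ERβ and 3 and 4 with PPARα, and these overlapped. One ESR1 region had peaks in both PPARα+ERα libraries only (chromosome 6, 151739860 to 151740300; fold 7.33 and 7.15) and another in both PPARα libraries only (151887042 to 151887380; fold 2.94 and 2.94). RORB had a region bound with PPARα+ERβ (fold 15.7 and 17.2) and PPARα (22.1 and 27.5) on chromosome 9. PPARGC1A, the PGC-1α coactivator of PPARα, had one bound with PPARα+ERβ (10.1 and 9.47) and PPARα (13.5 and 19.1), at 23912320 to 23912807 on chromosome 4. Neither had a PPARα+ERα peak there. RORA had regions of both kinds, one for PPARα+ERα (fold 7.91 and 9.16) and another for PPARα (15.5 and 17.95).

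Cyclic nucleotide signalling genes were bound in 12 of 26 eligible members with PPARα+ERα, 12 with PPARα+ERβ and 17 with PPARα. These shares were 46.2, 46.2 and 65.4%, beside 29.9, 32.2 and 42.4% of all eligible genes. The median density was 8.49 per Mb, beside 7.57, and the median eligible length 230.5 kb, beside 73.9 kb. Pooled over members, the density was 8.32 and 8.32 (PPARα+ERα), 5.19 and 7.24 (PPARα+ERβ) and 7.48 and 11.2 (PPARα). That was below the pooled density of all eligible genes in each library. PRKG1, the cGMP-dependent protein kinase, had 6 and 11 deep peaks with PPARα+ERα, 8 and 11 with PPARα+ERβ and 16 and 16 with PPARα. The log2 difference of PPARα+ERα from PPARα was -0.77 ± 0.36 (SE; limma adjusted p = 0.202, not called). The phosphodiesterase genes PDE1A (fold 12.95 and 10.6) and PDE11A (9.33 and 12.998) held PPARα+ERα regions without a PPARα peak. PDE1A also had a region in both PPARα libraries and no PPARα+ERα library (chromosome 2, 182423418 to 182423963, fold 9.34 and 10.9). PRKG1 in turn had a region in both PPARα+ERα libraries only (chromosome 10, 52168705 to 52169046, fold 8.63 and 8.46). PDE9A, a cGMP phosphodiesterase with 0.0219 Mb eligible, had 1 and 1 deep peaks with PPARα+ERα and 0 in the other 4 libraries, at places that did not overlap.

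Lipid and energy metabolism genes were bound in 21 of 41 eligible members with PPARα+ERα, 18 with PPARα+ERβ and 25 with PPARα (51.2, 43.9 and 61.0%), with a median density of 8.95 per Mb and a median eligible length of 149.6 kb. DGKI, a diacylglycerol kinase (fold 11.5 and 13.96), and CERS6, a ceramide synthase (10.1 and 9.86), had PPARα+ERα regions without a PPARα peak. AGMO, which cleaves ether lipids, had a region bound with PPARα+ERβ (9.79 and 10.1) and PPARα (12.4 and 12.9). FTO, an RNA demethylase linked to body weight, had one in PPARα+ERα library 1 (4.19) and both PPARα+ERβ libraries (4.57 and 4.17), and another with PPARα alone (3.56 and 4.02). As whole genes, CERS6 and AGMO each held 2 regions bound with PPARα+ERα without a PPARα peak, and 2 of the reverse.

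Liver transcription and growth signalling genes were bound in 25 of 52 eligible members with PPARα+ERα, 34 with PPARα+ERβ and 36 with PPARα. These shares were 48.1, 65.4 and 69.2%, beside 29.9, 32.2 and 42.4% of all eligible genes. The median density was 10.4 per Mb, beside 7.57, and the median eligible length 238.9 kb, beside 73.9 kb. Pooled over members, the density was 10.3 and 13.3 (PPARα+ERα), 7.34 and 8.46 (PPARα+ERβ) and 9.90 and 14.1 (PPARα). That was above all eligible genes in each library, which was not tested. Beside CUX1, the nuclear factor gene NFIA (fold 12.95 and 11.98) and MEIS2 (10.8 and 11.3) had PPARα+ERα regions without a PPARα peak. The receptor gene ERBB4 had a region in PPARα+ERβ library 2 (18.5) and both PPARα libraries (21.4 and 23.96). TEAD1, the DNA-binding partner of YAP, had a PPARα+ERβ region (9.40 and 8.07) with no peak in the other groups. The 58 synaptic and neuronal adhesion genes, all eligible, were bound in 49, 52 and 55 members, in the order PPARα+ERα, PPARα+ERβ and PPARα. The 20 common fragile site genes were bound in 19, 17 and 20. These shares were 84.5, 89.7 and 94.8% and 95.0, 85.0 and 100%, beside 29.9, 32.2 and 42.4% of all eligible genes. Members of the synaptic and fragile site lists had a median of 1003.5 and 1180.5 kb eligible, against 73.9 kb over all eligible genes. Their median densities were 7.95 and 8.56 per Mb, beside 7.57. A longer member has more room for a region, so counts of bound members, in these lists as in the others, are read beside that length.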

How the data were processed

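Peaks of PPARα chromatin immunoprecipitation in HepG2 were analysed from 6 narrowPeak lists, 2 per group. The no-antibody sample was not analysed here. Per the submitters' processing notes, the tools were MACS2 2.2.7.1, Bowtie 1.0.1, Trim Galore 0.6.4, DiffBind 2.16, ChIPseeker 1.18.0 and HOMER 4.11, with the builds hg38 and GRCh38.p13. The role of each and the control used are not given in the sources used here. In the deposited lists the score is the whole part of 10 times −log10 q, the fold is the authors' ratio of summit to local background, and −log10 p and −log10 q are the authors' values for the summit. The lists hold no read totals, so depth is unknown apart from the fragments at each summit and the background solved for below.

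The fragments stacked at a summit and their local background were solved for from the authors' fold and −log10 p together, taking the fold as (fragments + 1)/(background + 1) and p from a Poisson distribution. For 100% of peaks a whole fragment count gave back −log10 p to within 0.001. The genome-wide level was the 0.1% quantile of a list's background. In fragments it was 0.390 and 0.419 (PPARα+ERα), 0.585 and 0.709 (PPARα+ERβ) and 0.588 and 0.677 (PPARα), lowest in the PPARα+ERα lists. Stacked fragments and missing peaks were not set at equal depth between groups, and the part of depth in them was not tested. Gene spans came from the RefSeq gene table. It gives no exons, so intron and exon were not told apart. In all, 98 deep peaks lay in 2 or more spans and were counted for each gene.

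The members and gene lists were chosen with earlier results of these data known. Libraries were compared by exact permutation tests. Peaks per gene part were compared with limma 3.58.1 in R 4.3.3, with trend, on log2 of peaks plus 0.5 per 10000 of the library's peaks, over all 6 libraries. Other steps used SciPy 1.17.1, Matplotlib 3.10.9, NumPy 2.4.6 and pandas 2.3.3 under Python 3.11.15, and were tested on simulated data. Named genes are the 10 of highest share, the 8 of highest density, the 8 regions of highest rank in each direction and over all 6 libraries, up to 10 limma calls per direction, up to 4 per gene list, and ESR1, PDE9A, PRKG1 and PPARGC1A. Some genes that the rule names are not reported here. RORA, FTO, GALNT13 and PLCB1 were singled out for holding regions of both directions after their values were seen. Other named genes, such as ARHGEF3, CERS6, AGMO and PDE1A, held both as well. Alternatives tried were a 100 kb distance, ends of every gene type, lists of equal length, a stricter q, low background, an overlap of 100 bp, other filters and scales for limma, and leaving out each library.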

Additional observations from a re-analysis of the deposited data

How the results depend on the processing

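No paired analysis was possible because the numbers of the libraries follow the order of deposit only and pair nothing across groups. Of 229 values under alternatives, over 20 results, 153 kept their direction and their side of the threshold or stayed near the reported count, and 6 reversed. Part of this was fixed in advance. Exact permutation tests of 2 against 2 libraries cannot give p below 0.333, and sign-flip tests over fewer than 6 libraries cannot pass at 0.05. Leaving out a library outside a comparison hardly moves its region counts or deep shares. The tally is therefore no measure of stability. The lower deep density held its direction under all alternatives (log2 -0.32 to -0.26 when each library was left out). With lists cut to the same 17032 peaks, the background difference between deep and other peaks reversed to -0.016 (-0.0047 to 0.059 when each library was left out, negative without PPARα library 2 and without PPARα+ERβ library 2). With background up to 3 times, PPARα+ERβ minus PPARα in deep share reversed to 0.985 points (-0.761 to 0.125 when each library was left out, positive without PPARα library 1 and without PPARα+ERβ library 2). PPARα+ERα minus PPARα gave 0.631 to 1.52 points and PPARα+ERα minus PPARα+ERβ 0.971 to 1.81. The ranges were 0.0451 to 0.0674 for fragments, -0.0050 to -0.0025 for width and 0.693 to 1.001 points for overlap with the partner library.

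For regions in the order PPARα+ERα not PPARα, PPARα not PPARα+ERα, PPARα+ERβ not PPARα, PPARα not PPARα+ERβ, PPARα+ERα not PPARα+ERβ and PPARα+ERβ not PPARα+ERα, a 100 kb distance gave 867, 1595, 129, 542, 832 and 806, since it leaves less sequence (278.7 Mb). Lists of equal length gave 994, 1671, 398, 520 and 943 for the first 5. Background up to 3 times gave 214 for PPARα not PPARα+ERα, 78 for PPARα+ERβ not PPARα, 47 for PPARα not PPARα+ERβ and 188 for PPARα+ERβ not PPARα+ERα. That limit removed most PPARα and PPARα+ERβ peaks, so a fall in these counts was set in large part in advance. Leaving out each library gave 1555 to 4743, 2840 to 5662, 261 to 1061, 941 to 3065, 1488 to 4601 and 1520 to 3325. These region counts could hardly fall, since fewer lists had to hold or lack a peak. For deep gene parts by limma, in the order more and fewer with PPARα+ERα than PPARα, then more and fewer with PPARα+ERα than PPARα+ERβ, a mean of at least 1 peak gave 32, 26, 22 and 32, no filter beyond 1 peak 82, 46, 60 and 81, −log10 q of at least 3 gave 0, 0, 3 and 6, and scaling within chromosomes, chosen after seeing the data, 0, 0, 1 and 0. A median ratio scale gave 3 and 6 fewer, adding 1 peak gave 5 fewer than PPARα, and background up to 3 times gave 10 fewer than PPARα+ERβ. Leaving out each library gave 0 to 12, 0 to 24, 0 to 10 and 0 to 29, with 0 to 1 and 0 to 2 for PPARα+ERβ more and fewer than PPARα. Calls on single genes therefore rest on the filter, the scale and single libraries, the cause was not tested, and 2 libraries a group limit what any test can show.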

Other observations

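Genes of striated muscle and calcium handling, a list unrelated to liver, were bound in 13 of 29 eligible members with PPARα+ERα, 16 with PPARα+ERβ and 22 with PPARα, that is 44.8, 55.2 and 75.9%, beside 29.9, 32.2 and 42.4% of all eligible genes. Their median density was 7.27 deep peaks per Mb, beside 7.57 over all eligible genes, and their median eligible length 297.4 kb, beside 73.9 kb. SNTG1, a syntrophin gene, held a region on chromosome 8 at 50541755 to 50542174, with fold 6.84 and 5.68 in the PPARα+ERβ libraries and 9.88 and 11.2 in the PPARα libraries and no PPARα+ERα peak.

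Deep peaks of a library lay farther from one another than peaks near gene ends. The nearest other peak was within 10 kb for 19.6 and 21.8% of deep peaks with PPARα+ERα, 12.3 and 14.5% with PPARα+ERβ and 17.1 and 22.1% with PPARα. For peaks in genes within 50 kb of an end the shares were 24.9 and 25.7% (PPARα+ERα), 16.5 and 22.2% (PPARα+ERβ) and 19.4 and 29.3% (PPARα). The deep share was the lower one in all 6 libraries. Fewer peaks per Mb leave fewer near neighbours, so this follows in part from the lower deep density given above. No value was adjusted for density, so it is not a separate result.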
